A study of Mus musculus with 21 samples.

Results

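The hair genes examined here are those whose proteins build the hair shaft and the sheath around it. They were chosen by name from the count table: every keratin-associated protein gene (symbols starting with Krtap), the hair shaft keratins Krt31 to Krt36 and Krt81 to Krt86, the inner root sheath keratins Krt25 to Krt28 and Krt71 to Krt74, the companion layer keratin Krt75, trichohyalin (Tchh) and the peptidylarginine deiminase Padi3. Of 82 rows with such names, 80 had 10 or more counts in at least 1 library and are described, out of 64050 rows in the table. They are 22 keratins, 56 keratin-associated proteins (KAPs), Tchh and Padi3. The rows Krtap13 and Krtap19-9a stayed below the minimum.

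The study sequenced RNA from mouse skin in marrow-transplanted mice with chronic graft-versus-host disease, used as a model of systemic sclerosis, in 21 libraries of 5 groups. All recipients were BALB/c mice, 8 weeks old, irradiated with 700 cGy. Syngeneic recipients had BALB/c marrow and an isotype control antibody (Syn, n = 4). Allogeneic recipients had B10.D2 marrow and received the same isotype antibody (Allo, n = 4), an anti-mouse IL1RAP antibody (mCAN10, n = 4), water (Allo_H, n = 4) or nintedanib, a drug that blocks kinases of the VEGF, FGF and PDGF receptors (Nin, n = 5). Treatment started on day 21 and skin was taken in week 7, as a piece 3 mm in diameter. The dose of nintedanib was 50 mg/kg. Its route is uncertain, since the protocol has it given orally once a day and the design text has all allogeneic treatments injected. The antibodies were injected at 20 mg/kg first and 10 mg/kg thereafter. Donor strain parts the syngeneic from the allogeneic groups and cannot be told apart from disease. The labels do not say that the replicates are separate mice, so p-values measure the spread between these samples. Libraries are numbered by the replicate in their titles, and mCAN10_2, mCAN10_3 and mCAN10_4 here are the deposited columns mCAN10_3, mCAN10_4 and mCAN10_5.

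Hair is made only in the growing follicle. Matrix cells at its base differentiate into concentric layers: the inner root sheath, hardened by its own keratins and by trichohyalin that deiminases such as Padi3 modify, the companion layer, and the hair shaft, where hair keratin filaments are embedded in a matrix of keratin-associated proteins. In the shaft keratins come on first and the KAPs later, the high sulfur and ultrahigh sulfur families being rich in cysteine and the high glycine-tyrosine families in those residues. In resting follicles these genes are largely silent, and much of mouse back skin can pass between rest and growth in patches.

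Total counts per library ran from 17130264 to 32899212. One count was worth 0.0316 to 0.0625 CPM (counts relative to library size, scaled by TMM, a normalisation for library composition). Values under about 0.1 CPM rest on 3 counts or fewer. The 12 Syn, Allo and mCAN10 libraries and the 9 Allo_H and Nin libraries appear to have been counted with partly different gene names, which no label states. Among the hair genes, Krt85 and 8 KAPs (Krtap20-2, 27-1, 31-2, 5-1 to 5-4 and 9-5) are listed at 0 in each of those 12 libraries, and Krtap28-10 in each of the 9, so sums, shares, ranks and counts of genes reached hold these genes in 1 set only. The first 9 make up 1.86% of the summed CPM of the hair genes in Nin_1, 2.20% in Nin_3, 2.27% in Allo_H_3 and at most 4.38% (Allo_H_1) in the other 6. Every comparison tested below lies within 1 set. Genes with counts in both sets may be affected too: the muscle gene Mylpf had 36958 to 73194 counts in Syn and 1 to 11 in Allo_H and Nin. Whether other hair genes are affected in this way was not tested, so rankings across the sets are uncertain. The 4 Y-linked genes Ddx3y, Eif2s3y, Kdm5d and Uty summed to 2.73 to 6.61 CPM in the 4 Syn libraries, 15.2 in mCAN10_2, 11.7 in Nin_2 and 27.9 in Nin_4, and were at 0 in the other 14 libraries. The part of this in the results below was not tested.

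The summed level of the 80 hair genes in the replicates of the nintedanib group differed widely. It was 92742 CPM in Nin_1, 95.7 in Nin_2, 24784 in Nin_3, 78.8 in Nin_4 and 118 in Nin_5. In Nin_1 the hair genes took 9.53% of all counts and 79 of the 80 reached 10 counts, 10 of these in no other library. In Nin_3 they took 2.83%, with 68 genes at 10 counts or more. Nin_2, Nin_4 and Nin_5 gave 0.00962%, 0.00863% and 0.0115% of their counts to these genes, and 8, 7 and 10 genes reached 10 counts.

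The other groups lay near the 3 low nintedanib libraries, with an exception in each of the Allo and Allo_H groups. Syn libraries were at 83.1, 109, 225 and 163 CPM and mCAN10 libraries at 97.8, 129, 94.3 and 78.03 CPM. Allo_1 stood at 698 CPM with 38 genes at 10 counts or more, above Allo_2, Allo_3 and Allo_4 at 29.9, 18.96 and 41.6 CPM. Allo_H_3 reached 425 CPM with 29 such genes, and Allo_H_1, Allo_H_2 and Allo_H_4 were at 46.0, 22.5 and 54.2 CPM. Thus 3 of 4 Allo and all 3 remaining Allo_H libraries were below every Syn and every mCAN10 library. Krt75 alone was at 57.6 to 183 CPM in Syn and mCAN10 and at 1.14 to 16.1 CPM in these Allo and Allo_H libraries. The sums of inner root sheath keratins with Tchh and Padi3, of shaft keratins and of KAPs each overlapped between them. Means ± SD were 145 ± 62.9 CPM for Syn, 197 ± 334 for Allo, 99.8 ± 21.4 for mCAN10 (n = 4 each), 137 ± 192 for Allo_H (n = 4) and 23564 ± 40122 for Nin (n = 5), so that the spread exceeded the mean in Allo, Allo_H and Nin. Since the genes were chosen with earlier results known, no test is given for this sum.

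**Figure D1:**
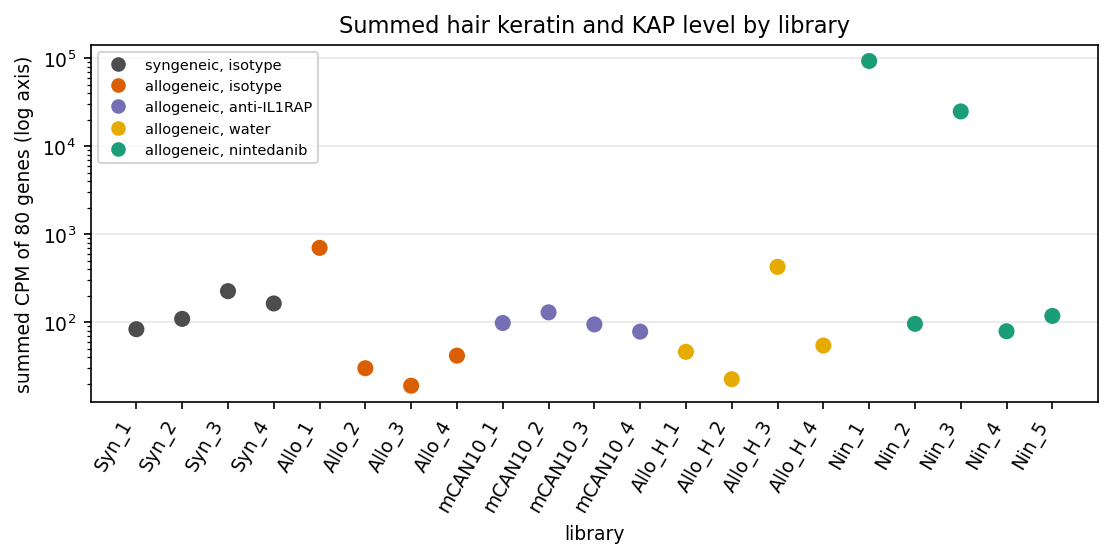
Summed CPM of the 80 hair genes (vertical log axis) in each of the 21 libraries, 1 point per library, coloured by group. Nin_1 and Nin_3 stand at 92742 and 24784 CPM, Allo_1 and Allo_H_3 at 698 and 425, and the other 17 libraries between 18.96 and 225.

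The order of libraries was shared by nearly all genes. Nin_1 was highest for 79 of 80, the exception being Krtap28-10, a gene listed at 0 in that set, and Nin_3 was next for 69. Behind these 2, Allo_1 ranked next for 40 genes and Allo_H_3 for 9. Detection followed: 11 genes reached 10 counts in 1 library, 28 in 2, 21 in 3 or 4, 17 in 5 to 20, and 3 (Krt75, Krtap3-2 and Tchh) in all 21. Of the 11, 10 did so in Nin_1 alone, and the 28 did so in Nin_1 and Nin_3. The rule of 10 counts in at least 1 library thus fixes part of this order. A piece of skin with fewer follicles in growth and one with less hair gene RNA per follicle cannot be told apart in such bulk samples.

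The make-up of the hair gene counts also differed between libraries. These shares are of counts and not per length, so the long Tchh transcript weighs heavily. In Syn, mCAN10, Nin_2, Nin_4 and Nin_5, Krt75 alone made up 62.9% to 81.4% of the counts, and the inner root sheath keratins with Tchh and Padi3 held 4.81% to 13.2%. In Allo_1, Allo_H_3 and Nin_3 the inner root sheath set held 84.9%, 86.1% and 86.2%, hair shaft keratins 5.57%, 6.99% and 7.46%, and KAPs 3.18%, 2.99% and 3.97%. The shares in these 3 libraries lay close together although their sums were 698, 425 and 24784 CPM. Nin_1 differed from them, with 59.6% in the inner root sheath set, 14.3% in shaft keratins and 24.6% in KAPs. In Allo_2 and Allo_H_2, where hair genes summed to only 29.9 and 22.5 CPM, KAPs held 64.4% and 47.9%, most of it Krtap3-2 (17.8 and 10.6 CPM).

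**Figure D2:**
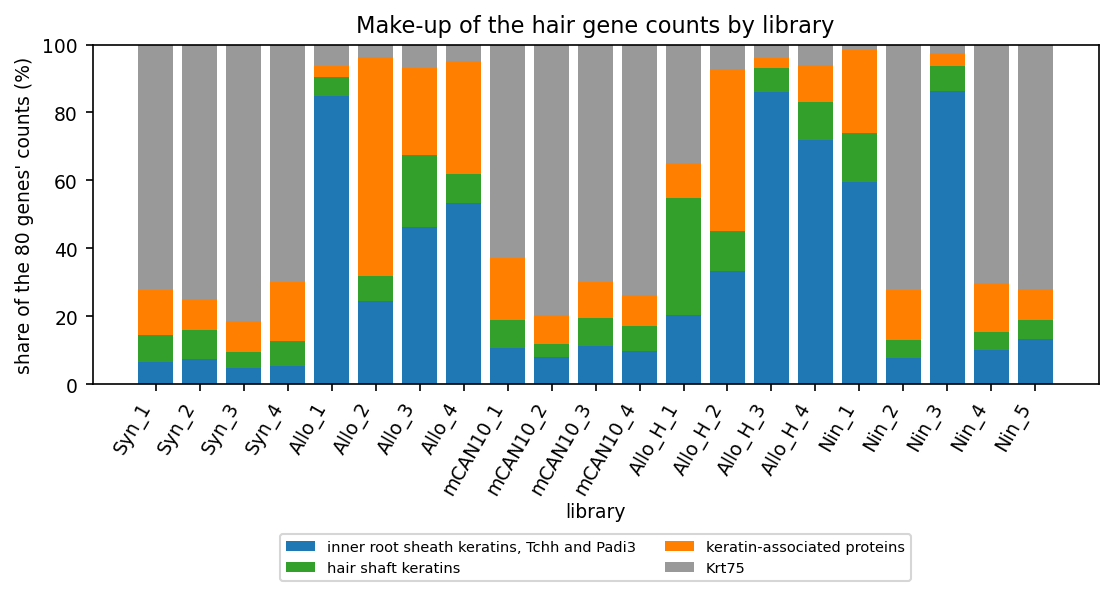
Share of the hair gene counts (vertical axis, percent, bars add to 100) held by 4 gene sets in each library. Krt75 (grey) fills most of the Syn, mCAN10, Nin_2, Nin_4 and Nin_5 bars, the inner root sheath set (blue) holds 84.9% to 86.2% in Allo_1, Allo_H_3 and Nin_3, and KAPs (orange) hold 24.6% in Nin_1.

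The inner root sheath keratins were high in Nin_1, Nin_3, Allo_1 and Allo_H_3 and near the limit of counting in most other libraries. Krt71, a type II keratin of the inner root sheath and the hair gene with the most counts in all, was at 16349, 0.106, 8019, 0.746 and 0.794 CPM in Nin_1 to Nin_5 in order. In Allo_H it was at 0.183, 0.477, 129.9 and 9.29 CPM, in Allo at 193, 0.104, 0.435 and 2.88 CPM, in Syn at 0.156, 0.0429, 0.716 and 0.425 CPM and in mCAN10 at 0.540, 0.475, 0.287 and 0.275 CPM. The nintedanib libraries therefore held both the highest values of the series (Nin_1, Nin_3) and, in Nin_2, one of the lowest, and overlapped every other group.

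Krt25, a type I keratin of the same sheath, was at 8525, 0.0530, 4392, 0.0533 and 0.113 CPM in Nin and 0.0611, 0.106, 80.5 and 5.30 CPM in Allo_H. Krt27, another type I sheath keratin, ran 5814, 0.106, 2397, 0.213 and 0.113 CPM in the same nintedanib order, and Krt28 1109, 0.689, 473, 0.640 and 0.850 CPM. These 3 genes were high in Nin_1 and Nin_3 only among the 5. Krt73 was at 1563, 0, 938, 0.853 and 3.798 CPM in Nin, 41.4, 1.40, 1.02 and 3.94 in Allo and 0, 0.729, 0 and 0.687 in Syn, with every Allo library above every Syn library.

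Tchh, which cross-links the sheath and medulla and is a target of Padi3, was at 19077, 5.67, 4447, 5.12 and 9.58 CPM in Nin_1 to Nin_5. It was detected in every library, at 3.79 to 5.46 CPM in Syn, 5.17 to 7.09 in mCAN10, 98.4, 4.21, 5.997 and 10.1 in Allo and 7.69, 5.04, 78.9 and 13.4 in Allo_H. Padi3 stood at 744, 0.689, 310.0, 0.267 and 0.340 CPM in the nintedanib libraries, 11.2 in Allo_1 and 7.46 in Allo_H_3, and between 0.131 and 1.07 CPM in the other 14 libraries of the series. Enzyme and substrate were thus high in the same 4 libraries.

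Hair shaft keratins were read chiefly in Nin_1. Krt34, a type I keratin of the shaft cortex, was at 1339.6, 0, 69.7, 0 and 0 CPM in Nin_1 to Nin_5, 0.917, 0.208, 0 and 0.250 in Allo and 0, 0, 0.617 and 0 in Allo_H. Krt83, a type II shaft keratin, was at 1915, 0, 112, 0.426 and 0 CPM in Nin, 0, 0.106, 1.07 and 0.285 in Allo_H and 1.28, 0.260, 0 and 0.313 in Allo. These 2 genes were at or near 0 in Nin_2, Nin_4 and Nin_5 and at most 0.430 CPM in Syn and mCAN10. Krt33a, of type I, ran 2600.4, 0.212, 157, 0.320 and 0 CPM in Nin_1 to Nin_5 and Krt81, of type II, 1647, 0, 62.2, 0 and 0.170 CPM, again with Nin_1 far above Nin_3. Krt35, a type I keratin of the early matrix and cuticle, was nearly as high in Nin_3 as in Nin_1: 817, 0, 533, 0.320 and 0.567 CPM in Nin and 20.9 and 8.42 in Allo_1 and Allo_H_3. Krt85, its type II counterpart, ran 1293, 0, 529.7, 0.107 and 0 CPM in Nin and 2.01, 0, 9.48 and 0.570 in Allo_H, and is listed at 0 in the other groups. Krt35 and Krt85 were thus closer in Nin_1 and Nin_3 than Krt34, Krt83, Krt33a and Krt81, but this was not particular to them. Nin_1 exceeded Nin_3 by a ratio of 1.53 for Krt35 and 2.44 for Krt85. The ratio was 2.29 for Krt32, 2.61 for Krt82 and 4.30 for Krt36, which are also shaft keratins.

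The KAPs of the high glycine-tyrosine families were read almost wholly in Nin_1 and Nin_3. Krtap8-1 was at 2239.7, 0, 67.7, 0.107 and 0.113 CPM in Nin_1 to Nin_5, Krtap7-1 at 2309, 0, 59.4, 0 and 0 CPM and Krtap19-3 at 625, 0, 0.0924, 0.0533 and 0 CPM. All 16 members of these families reached 10 counts in Nin_1, and 6 did in Nin_3. The other 10 (Krtap16-3, 19-1 to 19-5, 19-9b, 20-2, 6-1 and 6-3) reached them in Nin_1 alone and are among the 80 only through that library, so the rule itself fixes part of this contrast. No high glycine-tyrosine KAP reached 10 counts in Nin_2, Nin_4 or Nin_5. All 18 high sulfur and all 17 ultrahigh sulfur KAPs reached 10 counts in both Nin_1 and Nin_3. Krtap9-3, an ultrahigh sulfur KAP, was at 578, 0, 20.3, 0 and 0 CPM in Nin_1 to Nin_5, Krtap4-1 at 535, 0, 35.9, 0 and 0.170 CPM and Krtap4-7 at 420.1, 0.0530, 31.2, 0 and 0 CPM. Of the high sulfur KAPs, Krtap15 was at 2231, 0, 9.14, 0.160 and 0 CPM and Krtap1-5 at 1302, 0, 14.04, 0.107 and 0.0567 CPM, and Krtap11-1 at 1097, 0.0530, 85.3, 0 and 0 CPM. Members of these families are near-identical in sequence, so the share of reads each gene received is uncertain.

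Set gene by gene, Nin_1 exceeded Nin_3 for all 79 genes that could be compared, with a median ratio of 13.8, and the ratio differed by role. These are ratios of 2 single libraries with no replicate, so there is no test. Intervals given are exact 95% binomial ones for counting error only. For the 10 genes that reached 10 counts in Nin_1 alone, the rule itself fixes that Nin_1 was higher. Over the 69 others the median was 10.5. Inner root sheath type II keratins had a median of 1.85 (4 genes, from 1.44 for Krt74 to 5.83 for Krt72) and type I ones 2.38 (4 genes). Krt75 was at 2.32, Padi3 at 2.40 and Tchh at 4.29. Hair shaft keratins had medians of 10.5 for type I (7 genes, from 1.53 for Krt35 to 19.2 for Krt34) and 17.9 for type II (6 genes, from 2.44 for Krt85 to 307 for Krt84). Ultrahigh sulfur KAPs had a median of 7.05 (17 genes), high sulfur KAPs 15.2 (18 genes) and high glycine-tyrosine KAPs 1254 (16 genes). The last value rests in part on the 10 KAPs that entered through Nin_1 alone. Over the 6 others the median was 189, from 33.1 to 483, and no other role holds such genes.

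Of the 16 genes with a ratio over 100, 13 were high glycine-tyrosine KAPs, and the other 3 were Krtap14, Krtap15 and Krt84. Of the 69 compared genes that reached 10 counts in a library other than Nin_1, 7 had such a ratio, 4 of them in that class. Within that class the ratios started at 33.1 for Krtap8-1 (interval 31.4 to 34.9) and 38.9 for Krtap7-1, apart from the thinly counted Krtap20-2 (20 counts against 0, at least 8.04-fold higher in Nin_1 against a floor of 3 counts). Krtap19-3 had 11217 counts in Nin_1 and 2 in Nin_3, a ratio of 6762 (interval 1872 to 55846). Krtap19-1, 19-2, 19-4 and 19-5 had no count in Nin_3 and were at least 1407, 2436, 1503 and 3415-fold higher in Nin_1. These bounds enter the class median. At the other end, Krt74, Krt35, Krt73 and Krt25 were under 2-fold apart.

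**Figure D3:**
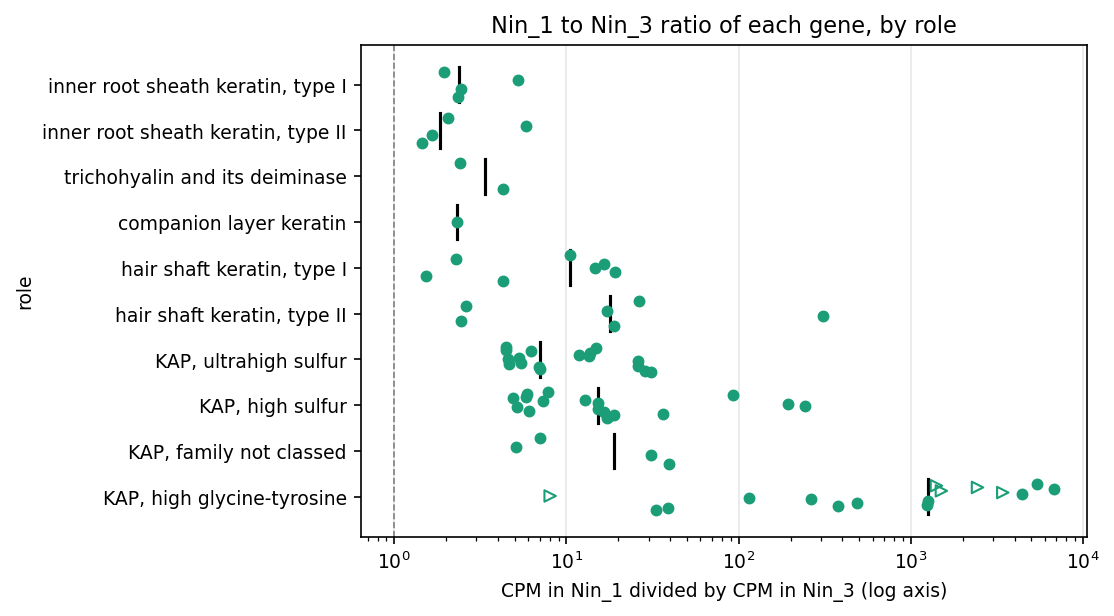
CPM in Nin_1 divided by CPM in Nin_3 (horizontal log axis) for each of 79 hair genes, grouped by role. Filled points are ratios, open triangles lower bounds against 3 counts, and black bars the median of each role, which runs from 1.85 for type II inner root sheath keratins to 1254 for high glycine-tyrosine KAPs (189 over the 6 of these 16 that reached 10 counts in a library other than Nin_1).

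Nin_3 was set in the same way against Allo_H_3, the water library with the highest hair gene sum, over the genes with enough counts to compare. The medians were 64.2 and 55.2 for type I and type II inner root sheath keratins, 49.0 for Tchh and Padi3 and 35.2 for Krt75. Type I and type II shaft keratins had medians of 66.4 and 74.1, and Krt84 was lower in Nin_3, at a ratio of 0.247. Part of the KAP values are lower bounds: 5 of 18 behind the median of 62.9 for high sulfur KAPs, 7 of 17 behind 101 for ultrahigh sulfur KAPs and 3 of 6 behind 16.7 for high glycine-tyrosine KAPs.

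The genes lie in few genomic neighbourhoods. In the RefSeq annotation of GRCm38.p6, where 78 of the 80 were found, they fell into 8 runs separated by more than 1000000 bases. The run from Krt25 to Krt36 on chromosome 11 holds both keratins and KAPs (34 genes) and had a median ratio of 9.18, from 1.53 for Krt35 to 92.8 for Krtap1-5. The type II keratin run on chromosome 15 (10 genes) had a median of 4.22. The KAP run from Krtap24-1 to Krtap11-1 on chromosome 16 (23 genes) had a median of 264, from 6.05 for the high sulfur KAP Krtap24-1 to 6762 for Krtap19-3. It holds the 10 KAPs that entered through Nin_1 alone, and over its 13 other genes the median was 38.9.

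Because most of these genes were high in the same libraries, their promoters were read from RefSeq (GRCm38.p6), where 67 of the 80 had an entry. Shown are the 60 bases before the start of transcription for genes of different roles, 5′ to 3′ on the gene's strand, with TATAAA in capitals where it begins 20 to 40 bases before the start; Krt75 is shown because it is counted in every library and lacks these letters there. The stretches are Krt25 chr11:99322952-99323011 (minus strand), Krt71 chr15:101743098-101743157 (minus strand), Krt34 chr11:100041555-100041614 (minus strand), Krtap4-7 chr11:99644090-99644149 (minus strand), Krtap8-1 chr16:89487953-89488012 (minus strand), Krtap16-3 chr16:88962874-88962933 (minus strand) and Krt75 chr15:101573905-101573964 (minus strand).
Krt25: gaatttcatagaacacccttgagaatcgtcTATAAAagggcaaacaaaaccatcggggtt
Krt71: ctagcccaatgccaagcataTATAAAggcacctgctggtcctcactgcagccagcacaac
Krt34: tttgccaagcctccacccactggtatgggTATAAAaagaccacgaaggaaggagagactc
Krtap4-7: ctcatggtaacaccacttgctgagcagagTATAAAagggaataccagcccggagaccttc
Krtap8-1: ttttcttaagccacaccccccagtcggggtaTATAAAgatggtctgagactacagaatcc
Krtap16-3: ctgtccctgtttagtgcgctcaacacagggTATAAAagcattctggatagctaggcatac
Krt75: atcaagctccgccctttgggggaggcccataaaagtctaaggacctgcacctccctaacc

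TATAAA began in that window on the gene's strand in 39 of the 67 promoters (58.2%), against 2.22% of all 27025 promoters in the table. Anywhere in the 250 bases before the start, on either strand, it was in 52 of 67 (77.6%) against 12.97%. By role the window held it in 12 of 16 ultrahigh sulfur, 8 of 15 high sulfur and 7 of 15 high glycine-tyrosine KAPs, 3 of 5 type I and 0 of 2 type II shaft keratins, and 3 of 4 type I and 2 of 3 type II inner root sheath keratins. The motif CTTTGAA, one form bound by the follicle factor LEF1, was in 17.9% of the 67 promoters and 4.64% of all, and CTTTGAT in 4.48% and 3.23% (both strands). A match is a description of letters, not of binding.

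Other genes of the growing follicle, from lists that do not overlap the 80, were for the most part also highest in Nin_1 and Nin_3 of the 5 nintedanib libraries. The 16 follicle signals and transcription factors summed to 2162, 468, 1736, 584 and 842 CPM in Nin_1 to Nin_5 and to 394 to 842 CPM in the 19 libraries other than Nin_1 and Nin_3. Hoxc13, a transcription factor of hair keratin genes, was at 223, 7.32, 138, 8.58 and 9.30 CPM in Nin and 10.8, 9.65, 11.7 and 12.7 in Allo_H. Msx2, a matrix transcription factor, was at 192, 4.82, 126, 6.40 and 3.91 CPM in Nin, and Lef1, the nuclear partner of Wnt signals, at 127, 3.55, 97.2, 10.98 and 8.28 CPM. Shh, a growth signal of the matrix, was at 28.3, 0.106, 42.9, 0.800 and 0.397 CPM and so was higher in Nin_3 than in Nin_1, unlike all 79 hair genes compared. The same held for Msx1, Wnt10a, Wnt10b, Bmp4, Gata3, Gli1 and Ptch1 of this list, and the rest were higher in Nin_1. Of the 16, 12 were higher in both Nin_1 and Nin_3 than in the other 3 nintedanib libraries. The exceptions were Wnt10a (28.8, 21.5, 45.5, 50.6 and 75.6 CPM in Nin_1 to Nin_5), Gata3 (293, 233, 321, 278 and 423), Bmp2 (53.6, 23.2, 20.6, 21.3 and 29.9) and Foxq1 (96.3, 16.3, 39.5, 29.9 and 48.9).

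The 9 further shaft and sheath genes summed to 4463, 57.0, 953, 51.0 and 102 CPM in Nin_1 to Nin_5. Gprc5d, a receptor of differentiating shaft keratinocytes, was at 587, 0, 46.5, 0 and 0 CPM, with 0 counts in Nin_2, Nin_4 and Nin_5. Dsg4, the desmosomal cadherin of the shaft, was at 156, 0.212, 37.7, 0.160 and 0 CPM, and Tchhl1, a trichohyalin-like protein, at 1514, 0.477, 198, 0.160 and 0.454 CPM. S100a3, a calcium-binding protein of the hair cuticle, was at 1150.4, 0.424, 522, 1.23 and 0.170 CPM in Nin, 14.5 in Allo_1 and 6.57 in Allo_H_3. Of the 9 genes 8 were higher in both Nin_1 and Nin_3 than in the other 3 nintedanib libraries. The exception was the transglutaminase Tgm3, at 341, 29.6, 32.9, 32.0 and 69.0 CPM in Nin_1 to Nin_5 and 84.8, 73.4, 59.5 and 168 in Allo_H, so that Nin_3 lay below every water library.

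**Figure D4:**
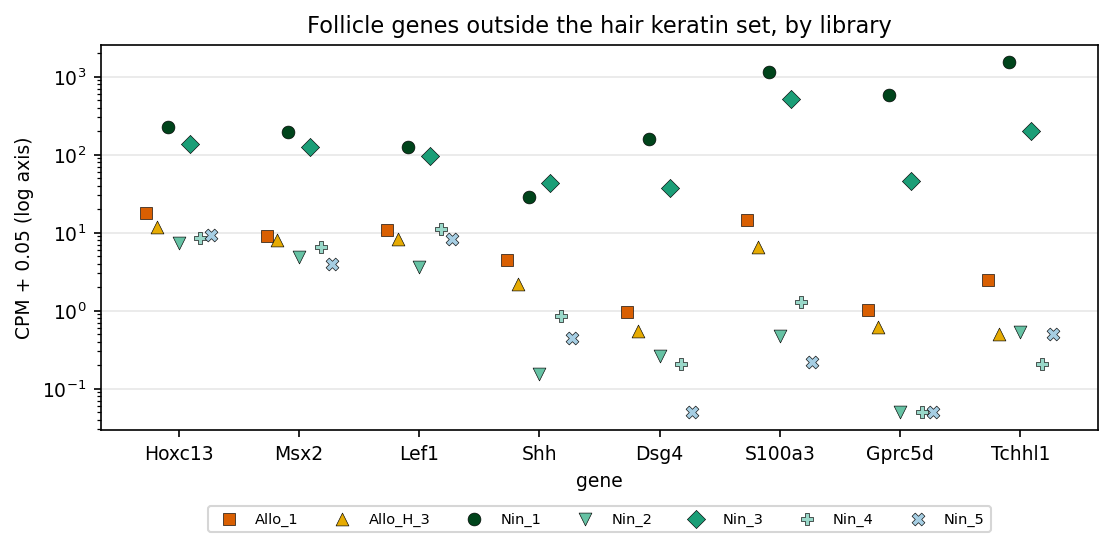
CPM + 0.05 (vertical log axis) of 8 follicle genes outside the hair keratin set in Nin_1 to Nin_5, Allo_1 and Allo_H_3, 1 symbol per library. Nin_1 and Nin_3 lie above the other libraries for each gene, Shh is at 42.9 CPM in Nin_3 and 28.3 in Nin_1, and Gprc5d is at 0 in Nin_2, Nin_4 and Nin_5.

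Some lists for other cell types also differed between Nin_1 and Nin_3 and the remaining nintedanib libraries, others did not, and their part in the hair gene differences was not tested. The interfollicular epidermis list (9 of 10 genes in the table) was at 8175, 21445, 23312, 32424 and 51196 CPM in Nin_1 to Nin_5, Nin_1 being the lowest of the 21 libraries, which otherwise ran from 20831 to 87000.4 CPM. Skeletal muscle genes (12) were at 5199.8, 33298, 6976, 27025 and 25117 CPM, and at 183 CPM in Allo_1, the lowest of all. Melanocyte genes (10) were at 225, 77.9, 177, 90.5 and 107 CPM, and cell cycle genes (21) at 1399, 324, 1541, 729.7 and 609 CPM. Leukocyte genes (5) were at 281, 497, 298, 1795 and 778 CPM and sebaceous genes (10) at 2332, 19798, 3140.3, 1253 and 4538 CPM. In Nin_1 and Nin_3 the melanocyte and cell cycle sums were higher, and the muscle and leukocyte sums lower, than in the other 3 nintedanib libraries. The epidermis, sebaceous, adipocyte, fibroblast, dermal papilla, and immediate early and heat shock sums overlapped. Dermal papilla genes (11) were at 181, 103, 294, 186 and 198 CPM in Nin_1 to Nin_5, with Nin_1 below Nin_4 and Nin_5. Immediate early and heat shock genes (6) were at 605.0, 395, 542, 532 and 605.2 CPM. Adipocyte genes (10) were at 2545, 18815, 2944, 1978 and 3203 CPM and fibroblast genes (7) at 3770.0, 3610.2, 7118, 5695 and 10421 CPM in Nin_1 to Nin_5. The follicle stem cell and outer root sheath sum (8 genes) was higher in Nin_1 and Nin_3 by a small margin, at 3274, 2042, 3079.7, 2495 and 2804 CPM. Gpr143 was at 0 counts in Nin_2 and Nin_4 and Rspo2 in Nin_5, and outside the shaft list no other list gene was at 0 in a nintedanib library.

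Nintedanib was compared with water in allogeneic recipients, which asks what this kinase inhibitor changes in diseased skin. Of the 80 hair genes 30 passed the filter on low counts, and by edgeR's quasi-likelihood test with Benjamini-Hochberg adjustment 23 of them rose, none fell and 7 were not called, beside 9.31% of all 20462 genes called in either direction (5.56% higher, 3.76% lower). Many of the 30 passed the filter only through the libraries where they are high, so their count and their median log2 fold change of 7.39 (0 over all genes) are no measure of the set. The count moved with single libraries of both groups. The filter was run again in each such fit, so the number of hair genes tested moved as well. Without Nin_1 edgeR called Krt32, Krt36 and Krt75 higher and Krt84 lower of 17 tested, and without Nin_3 it called 6 of 17. Without both, of 17 tested, 0 were higher and 1 lower (Krt84), beside 2.53% and 3.35% of all genes. Leaving out Allo_H_1, Allo_H_2, Allo_H_3 or Allo_H_4 left 8 calls of 39, 4 of 39, 15 of 38 and 2 of 39. With only the 9 libraries of the comparison in the fit, edgeR called none of 15 tested genes, 11 having an unadjusted p under 0.05. DESeq2 on all libraries called 24 of 30. The labels note reads from 2 lanes for Allo_H_1, Allo_H_2, Nin_2, Nin_3 and Nin_5; among these libraries edgeR called none of 12 tested genes (6 at an unadjusted p under 0.05), and among the other 4 none of 29 (3 at an unadjusted p under 0.05).

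Sizes of the called changes were large and their errors wide. Krtap8-1 had a log2 fold change 11.48 ± 2.77 (SE), edgeR adjusted p = 0.0160, Krt34 10.77 ± 2.66 and Krt83 10.09 ± 2.50. For 7 of the 23 called genes the median nintedanib library was below the median water library, among them Tchh (9.58 against 10.5 CPM) and Krt86 (0 against 0.206 CPM). Krt71 (log2 fold change 7.12 ± 2.92 (SE), edgeR adjusted p = 0.129) and Krt25 (6.91 ± 2.93, edgeR adjusted p = 0.142) were not called. Among the named genes called with all libraries, the sign turned without Nin_1 and Nin_3 for Tchh (-2.0), Padi3 (-2.42), Krt28 (-1.51) and Krtap3-3 (-0.19). None of these 4 was called there.

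Krt75 was the only one of the 30 tested hair genes whose nintedanib and water libraries did not overlap, beside 7.94% of all genes tested (4.75% higher, 3.2% lower). It encodes the keratin of the companion layer, which lies between the inner and outer root sheaths. It was at 1372, 69.2, 590.5, 55.2 and 84.9 CPM in Nin_1 to Nin_5 and at 16.1, 1.59, 16.8 and 3.19 CPM in Allo_H_1 to Allo_H_4. All 5 nintedanib libraries, Nin_2, Nin_4 and Nin_5 included, were above the highest water library (log2 fold change 5.53 ± 1.32 (SE), edgeR adjusted p = 0.0154). Without Nin_1 the change was 4.40 ± 1.17 (edgeR adjusted p = 0.0344), and without Nin_1 and Nin_3 it was 2.86 ± 1.02 (edgeR adjusted p = 0.107), with no overlap still. Without Allo_H_4 the adjusted p by edgeR was 0.0584, and with only the 9 libraries compared 0.0881. Within the libraries with and without the note on 2 lanes the change was 4.86 ± 1.51 and 6.16 ± 1.95 (edgeR adjusted p = 0.467 and 0.768).

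Krt36 and Krt32, type I shaft keratins, gave the smallest p-values for nintedanib. Krt36 was at 97.9, 2.65, 22.8, 0.267 and 1.76 CPM in Nin and 0.366, 0, 0.673 and 0.342 in Allo_H (log2 fold change 6.17 ± 1.32 (SE), edgeR adjusted p = 0.00900). Only Nin_4 lay within the range of the water libraries. Krt32 was at 191, 1.38, 83.4, 2.29 and 3.06 CPM in Nin and 0.427, 0.530, 1.57 and 0.285 in Allo_H (log2 fold change 6.30 ± 1.45 (SE), edgeR adjusted p = 0.0123), with Nin_2 below Allo_H_3. Without Nin_1 and Nin_3 neither was called.

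Follicle genes outside the hair set moved in part alike. Of the 16 follicle signals and transcription factors 6 rose and none fell (median log2 fold change 1.37, against 0 over all genes), among them Msx2 (log2 fold change 3.67 ± 1.00 (SE), edgeR adjusted p = 0.0282) and Hoxc13 (2.78 ± 0.86, edgeR adjusted p = 0.0493). Of 7 tested shaft and sheath genes 4 rose, and of 8 follicle stem cell and outer root sheath genes 2 rose. Krt15, a keratin of the stem cell bulge, was at 677, 1049, 1032, 1445 and 1268 CPM in Nin and 399, 182, 296 and 168 in Allo_H without overlap (log2 fold change 2.07 ± 0.54 (SE), edgeR adjusted p = 0.0232). As with Krt75, it was higher than in water in all 5 nintedanib libraries, and it was lowest of the 5 in Nin_1. Without Nin_1 and Nin_3, Krt15 still rose (log2 fold change 2.23 ± 0.60, edgeR adjusted p = 0.0379), whereas Msx2 was at -0.10 ± 0.49 and Hoxc13 at -0.46 ± 0.42 (edgeR adjusted p = 1 and 0.626). Among all 20837 genes tested in that fit 2.53% rose and 3.35% fell. None of the 16 follicle signals and factors rose there and 1 fell (Ovol1, -1.09 ± 0.29, edgeR adjusted p = 0.0347), 3 of 8 stem cell genes (Krt15, Cd34 and Sox9) and 5 of 10 sebaceous genes rose, 1 of 6 immediate early and heat shock genes fell (Hspa1a), and no gene of the other 9 lists was called. Among the lists for other tissue parts, with all libraries, 6 of 10 sebaceous, 2 of 10 dermal papilla and 1 of 9 melanocyte genes rose, 3 of 9 interfollicular epidermis and 2 of 6 immediate early and heat shock genes fell, and edgeR called none of the cell cycle, skeletal muscle, adipocyte, fibroblast and leukocyte genes.

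Allogeneic and syngeneic recipients, both with isotype antibody, were compared to describe the disease in skin. By edgeR none of the 30 tested hair genes was called, 5 having an unadjusted p under 0.05, beside 22.6% of all genes called (13.8% higher, 8.8% lower), while DESeq2 called 6. Krt75 was at 60.2, 81.7, 183 and 114 CPM in Syn and 44.5, 1.14, 1.31 and 2.00 CPM in Allo, every Allo library being below every Syn library (log2 fold change -3.16 ± 1.20 (SE), edgeR adjusted p = 0.0658). Allo_1, the Allo library with the highest hair gene sum, was the closest to Syn. Without it the change was -6.21 ± 1.25 (edgeR adjusted p = 0.00249), and Krt75 passed the threshold.

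Krt36 was also below Syn in every Allo library, at 2.58, 3.26, 2.46 and 5.46 CPM in Syn and 0.550, 0.260, 0.677 and 0.313 in Allo (log2 fold change -2.90 ± 1.20 (SE), edgeR adjusted p = 0.0885). Krt73 was above Syn in every Allo library (log2 fold change 5.02 ± 2.18 (SE), edgeR adjusted p = 0.106). Of the 30 tested hair genes, only these 3 had groups that did not overlap, beside 29.2% of all genes tested (16.8% higher, 12.5% lower). Hair genes that did not pass the filter were left out of this count. The inner root sheath keratins Krt25 (log2 fold change 8.54 ± 3.48 (SE), edgeR adjusted p = 0.0856) and Krt71 (log2 fold change 7.18 ± 3.09 (SE), edgeR adjusted p = 0.103) had large but widely spread differences with Allo_1 highest and Allo_4 next. In the same comparison 4 of 8 follicle stem cell genes fell, Krt15 from 1840.1, 2009, 3157 and 2132 CPM in Syn to 703, 183, 51.0 and 108 in Allo (log2 fold change -3.13 ± 0.58 (SE), edgeR adjusted p = 0.00101).

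Next, allogeneic recipients with anti-IL1RAP antibody were set against those with isotype antibody, a contrast that shares the Allo libraries with the one above. None of 30 hair genes was called by edgeR, 3 having an unadjusted p under 0.05, beside 10.8% of all genes called (5.58% higher, 5.19% lower), while DESeq2 called 5, all lower. Krt75 was at 61.5, 103, 65.97 and 57.6 CPM in mCAN10, above all 4 Allo libraries (log2 fold change 2.55 ± 1.17 (SE), edgeR adjusted p = 0.185), and without Allo_1 the change was 5.61 ± 1.22 (edgeR adjusted p = 0.00737). Krt36 was at 2.16, 1.08, 1.91 and 1.83 CPM, again above every Allo library (log2 fold change 1.92 ± 1.19 (SE), edgeR adjusted p = 0.353). Krt73, at 0.656, 0.285, 0.908 and 0.549 CPM, was below every Allo library (log2 fold change -4.34 ± 2.08 (SE), edgeR adjusted p = 0.206). No other of the 30 tested hair genes had groups that did not overlap, beside 23.1% of all genes tested (12.2% higher, 10.9% lower). Among the follicle stem cell genes 4 of 8 rose, with Krt15 at 2329, 1946, 2171 and 1333 CPM in mCAN10 (log2 fold change 2.90 ± 0.57 (SE), edgeR adjusted p = 0.00379).

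**Figure D5:**
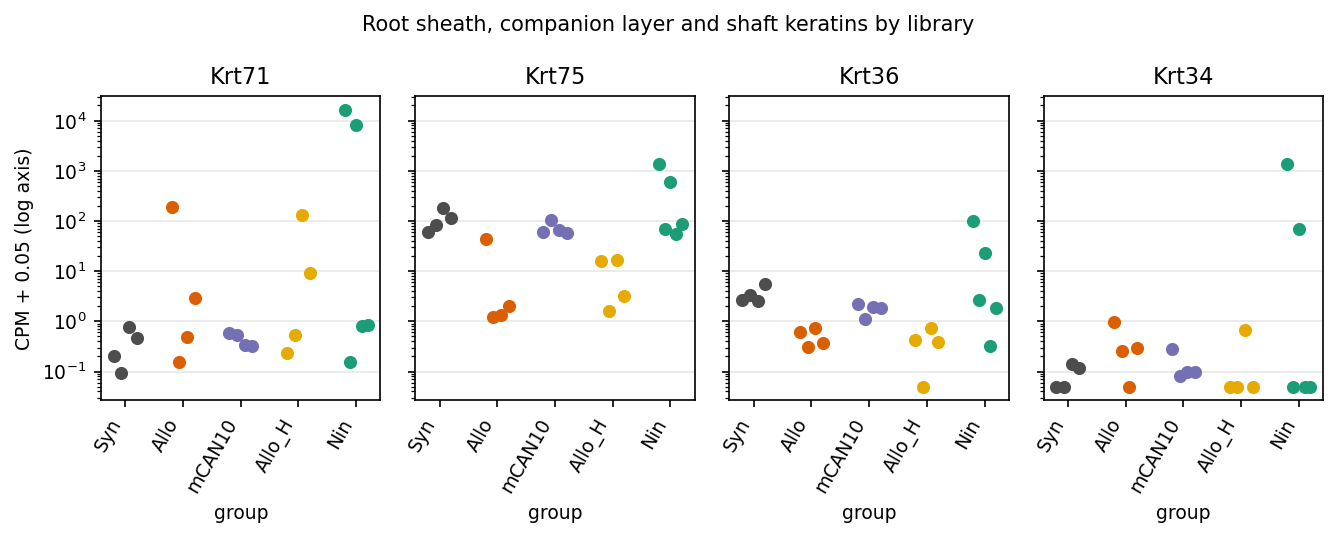
CPM + 0.05 (vertical log axis) of Krt71 (inner root sheath), Krt75 (companion layer), Krt36 and Krt34 (hair shaft) by group, 1 point per library in replicate order. Krt71 and Krt34 are high in 2 of 5 nintedanib libraries, whereas for Krt75 all 5 nintedanib libraries (55.2 to 1372 CPM) lie above the water libraries (1.59 to 16.8 CPM).

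In order of level Krt75 thus ran Nin_1, Nin_3, the Syn and mCAN10 libraries with Nin_2, Nin_4 and Nin_5 (55.2 to 183 CPM), Allo_1, Allo_H_3 and Allo_H_1, and then Allo_H_4, Allo_4, Allo_H_2, Allo_3 and Allo_2 (1.14 to 3.19 CPM). Neighbouring groups Syn, mCAN10 and the 3 low nintedanib libraries overlapped. This order crosses the sets of libraries that appear to differ in gene names. The exons of Krt75, Krt32, Krtap10-10, Krtap15 and Krtap24-1 overlap another annotated gene, and the library kit does not mark strand, so reads of the pairs cannot be told apart.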

How the data were processed

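RNA of mouse skin was sequenced in 21 libraries. Per the submitters' processing notes, the reads were checked with FastQC, trimmed with Trimmomatic, aligned with STAR and counted with featureCounts on GRCm39; neither versions nor the strand setting were given in the sources used here. The authors deposited raw counts per gene, whole numbers without normalisation, which were used as deposited.

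Counts were scaled by TMM, filtered (filterByExpr, minimum count 10) to 20462 genes and tested with edgeR 4.0.16 in R 4.3.3 (quasi-likelihood test, all 21 libraries in 1 fit, Benjamini-Hochberg over all genes tested, threshold 0.05). On simulated counts for the nintedanib comparison, 85 of 100 genes changed 4-fold and 46 of 100 changed 2-fold were recovered, with 4 false calls among 20187 genes. For allogeneic against syngeneic 76 and 38 were recovered (4 false calls), and for anti-IL1RAP against isotype 76 and 46 (6 false calls). Each simulated gene had a single mean per group, so genes high in only some libraries of a group are not covered. Alternatives were RLE factors, no filter, DESeq2 1.42.0, only the groups compared, a replicate block, each library left out, lane notes, and, chosen after seeing the data, a fit without Nin_1 and Nin_3 and ratios over genes with 10 counts in a library other than Nin_1. Replicates are numbered as in the sample titles; mCAN10_1 to mCAN10_4 are the deposited columns named mCAN10_1, mCAN10_3, mCAN10_4 and mCAN10_5. Named genes are Krt34, Krt83, Tchh, Padi3, up to 3 per role by mean CPM, up to 10 called per comparison and direction or otherwise the 3 of lowest p, and up to 3 of each other list by p; further genes in the text were chosen after their values were seen. The genes and lists were chosen with earlier results of these data known. KAPs were to be classed by residue composition; without a protein table their textbook family class was used, and 5 stayed unclassed. Ratios between single libraries carry exact 95% binomial intervals, and a count of 0 was set to a floor of 3 counts per library; reads without molecular identifiers are not independent molecules, so both cover counting error only. Promoters came from RefSeq (GRCm38.p6), another build than the counts, and exon overlaps from GENCODE annotation.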

Additional observations from a re-analysis of the deposited data

Results flagged for a closer look

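Some libraries lay far from the other replicates of their group, with a gap to the nearest replicate beyond Dixon's critical value. Of 90 groups of values examined 38 were picked out. The criterion picks about 1 in 20 by chance only for normally distributed values, and these CPM were not transformed, so that rate does not apply. Genes of 1 library are not independent of each other, and some were chosen by low p. The 38 fell on Allo_1 (12), Allo_H_3 (11), Nin_1 (12), Syn_1, mCAN10_1 and mCAN10_3 (1 each, the mCAN10 numbers being those of the sample titles). Groups in which 2 libraries are high, as with Nin_1 and Nin_3, can escape this criterion.

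Nin_1 was far above the rest of its group in the summed CPM of all hair genes (92742 CPM, the nearest library being at 24784). By role its summed CPM stood apart for unclassed KAPs (529.8 CPM), high glycine-tyrosine KAPs (9309.7 CPM), high sulfur KAPs (9778 CPM), ultrahigh sulfur KAPs (3169.9 CPM), hair shaft keratins, type I (6832 CPM), hair shaft keratins, type II (6475 CPM) and Tchh with Padi3 (19821 CPM). Among single genes it stood apart for Krt34 (1339.6 CPM), Krt83 (1915 CPM), Tchh (19077 CPM) and Krt36 (97.9 CPM).

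Allo_1 was far above the rest of its group in the summed CPM of all hair genes (698 CPM, the nearest library being at 41.6). By role its summed CPM stood apart for unclassed KAPs (1.61 CPM), ultrahigh sulfur KAPs (6.83 CPM), hair shaft keratins, type I (30.8 CPM), inner root sheath keratins, type I (242 CPM), inner root sheath keratins, type II (241 CPM) and Tchh with Padi3 (109.6 CPM). Among single genes it stood apart for Tchh (98.4 CPM), Padi3 (11.2 CPM), Krt75 (44.5 CPM), Krt25 (154 CPM) and Krt71 (193 CPM).

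Allo_H_3 was far above the rest of its group in the summed CPM of all hair genes (425 CPM, the nearest library being at 54.2). By role its summed CPM stood apart for high glycine-tyrosine KAPs (0.730 CPM), hair shaft keratins, type I (14.6 CPM), inner root sheath keratins, type I (127 CPM), inner root sheath keratins, type II (152 CPM) and Tchh with Padi3 (86.3 CPM). Among single genes it stood apart for Krt34 (0.617 CPM), Tchh (78.9 CPM), Padi3 (7.46 CPM), Krt25 (80.5 CPM) and Krt71 (129.9 CPM).

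At levels of a few counts, type II hair shaft keratins were low in Syn_1 (0.702 CPM, the nearest library being at 1.57), Krt34 was high in mCAN10_1 (0.231 CPM) and unclassed KAPs in mCAN10_3 (0.191 CPM).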

How the results depend on the processing

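The number of hair genes called for nintedanib against water was 23 of 30 tested. It was 23 of 30 with RLE factors and 24 of 30 with DESeq2 (19 shared), but 41 of 80 with no filter on low counts. It was 0 of 15 with only the groups compared, and 0 of 12 and 0 of 29 in the libraries with and without the note on 2 lanes. Without Nin_1 and Nin_3 it was 1 of 17, beside 2.53% of all genes higher and 3.35% lower. Leaving out 1 library gave 2 to 25, with 17 to 39 tested, since the filter was run again in each fit. For allogeneic against syngeneic the count was 0 of 30 and became 6 of 30 with DESeq2 and 2 of 10 with only the groups compared. It was 7 of 17 without Nin_1 and Nin_3, beside 16.2% of all genes higher and 12.1% lower. With 1 library left out it was 0 to 1, of 31 to 39 tested (1 without Allo_1). For anti-IL1RAP against isotype it was 0 of 30, 5 of 30 with DESeq2 and 1 of 11 with only the groups compared. It was 4 of 17 without Nin_1 and Nin_3, beside 7.24% of all genes higher and 7.97% lower. With 1 library left out it was again 0 to 1, of 31 to 39 tested (1 without Allo_1). The cause was not tested. Sign changes were counted only for named genes tested in both fits and called in either. By that count 4 genes changed sign without Nin_1 and Nin_3 in the nintedanib comparison: Tchh (-2.0), Padi3 (-2.42), Krt28 (-1.51) and Krtap3-3 (-0.19). Over named hair genes, settings and comparisons, 726 values kept their side of the threshold, 39 newly passed it, 86 lost it and 4 changed sign. Among the 726, genes called in neither fit may have changed direction. The 20 alternative group means of summed CPM moved by less than 1 SD. In Allo, Allo_H and Nin the SD exceeded the mean, so this mark says little there.

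Replicate numbers are shared by the groups, but same-numbered samples did not deviate together throughout (correlations over genes from -0.23 to 0.35), so the numbers were not taken to pair them. With the replicate block 1 of 10 tested hair genes was called for allogeneic against syngeneic (Krt36). For anti-IL1RAP it was 2 of 11 (Krt36 and Krt84) and for nintedanib 1 of 15 (Krt75). Depth limits values near 1 count: 3 counts corresponded to 0.0949 to 0.188 CPM.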

Other observations

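A few hair genes went against the common order. Krtap3-2, a high sulfur KAP, was at 9.33, 7.72, 16.2 and 24.4 CPM in Syn, 4.27, 17.8, 4.79 and 10.6 in Allo, 15.2, 9.40, 8.03 and 5.91 in mCAN10, 4.33, 10.6, 3.65 and 3.71 in Allo_H and 511, 12.9, 29.4, 10.0 and 9.92 in Nin. It was counted in all 21 libraries and was not higher in Allo_1 and Allo_H_3 than in their groups. Its neighbour Krtap3-3 stayed between 0 and 1.47 CPM in the libraries other than Nin_1 and Nin_3. Krt84, a type II keratin, was at 12.8, 1.91, 1.68 and 2.85 CPM in Allo_H and 128, 0.795, 0.416, 0.480 and 0.794 in Nin, so that Nin_3, second for most hair genes, was here among the lowest libraries.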
